A study of Arabidopsis thaliana with 21 samples.

Results

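The regions described here are the peaks around the centromere of Arabidopsis thaliana chromosome 2, chosen by position alone. Every peak of the 6 deposited lists was taken whose summit lay on chromosome 2 from 2000001 to 6000000 (TAIR10, the build named in the submitters' processing notes). This window of 4000000 bp held 568 of the 10293 nuclear peaks of the 6 lists. The lists come from chromatin immunoprecipitation and sequencing (ChIP-seq) of 10 day old Columbia seedlings in which an antibody to GFP pulled down the related yellow fluorescent protein EYFP. GLABRA2 (GL2) was fused to EYFP as the wild type (GL2) and in 4 altered forms (gl2_E375G R392M, gl2_Amo, gl2_dSTART and gl2_dZip), and each fusion was a transgene in plants homozygous for the null allele gl2-5. Plants of gl2-5 without a transgene served as the control for antibody background, so all 6 groups share the gl2-5 null allele. Per the labels, the transgenes were introduced by floral dip, and of the fusions the wild-type form rescued the mutant phenotype. What Amo stands for is not given in the labels. Each list was called on the merged ChIP libraries of its genotype, 3 in GL2, gl2_Amo and gl2_E375G R392M and 2 for the others, so the values below are single measurements with no replicate error, and no difference between genotypes was tested.

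GL2 is a homeodomain leucine zipper transcription factor of the plant epidermis, where it promotes trichome growth and keeps non-hair root cells from forming hairs. Its START domain is a lipid-binding module, and its leucine zipper joins a partner protein. The chromatin on both sides of a plant centromere is compact heterochromatin, rich in repeats and in remnants of transposons and poor in active genes, and in Columbia the chromosome 2 pericentromere also carries a large insertion of mitochondrial DNA. Repeats of this kind are hard to tell apart with short reads. The files mark no centromere, so the name of the window was checked against the RefSeq gene table (TAIR10.1). The window held 85.0 protein-coding genes per Mb, against 253 in the rest of chromosome 2, and 164 pseudogenes per Mb, against 24.8. It was thus poor in protein-coding genes and rich in pseudogenes.

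All 6 lists had peaks in the window, gl2_Amo the most and gl2-5 the fewest. There were 54 peaks in GL2 (95% Poisson interval 40.6 to 70.5), 120 in gl2_dSTART (99.5 to 143), 116 in gl2_dZip (95.9 to 139), 184 in gl2_Amo (158 to 213), 53 in gl2_E375G R392M (39.7 to 69.3) and 41 in gl2-5 (29.4 to 55.6). Like those given below, these intervals reflect counting error alone and take each peak as independent of its neighbours. The lists differed in length and depth, with between 227071 (gl2-5) and 1248287 (gl2_dZip) ChIP tags kept by the peak caller after it had allowed 1 tag per position. With each list cut to its 681 highest-scoring nuclear peaks the order turned: 68 lay in the window in gl2_dZip, 41 in gl2-5, 38 in GL2, 37 in gl2_Amo, 29 in gl2_dSTART and 24 in gl2_E375G R392M.

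Relative to its own length, the gl2_dZip list had the highest share of peaks in the window. The window held 9.21% of the nuclear gl2_dZip peaks (95% Wilson interval 7.74 to 10.9), 6.02% in gl2-5 (4.47 to 8.07), 5.39% in GL2 (4.16 to 6.97), 5.21% in gl2_Amo (4.52 to 5.99), 4.73% in gl2_dSTART (3.97 to 5.62) and 4.14% in gl2_E375G R392M (3.18 to 5.38). The interval of gl2_dZip lay above those of GL2, gl2_dSTART, gl2_Amo and gl2_E375G R392M and overlapped that of gl2-5. The other intervals overlapped each other, that of gl2-5 included. Of the peaks on chromosome 2, the window held 62.0% in gl2_dZip and between 26.9% (gl2_E375G R392M) and 38.7% (gl2_Amo) for the other lists. Peak density in the window, 29.0 per Mb in gl2_dZip, was 6.41 times that of the rest of the chromosome, while the ratio was 1.86 in GL2, 2.40 in gl2_dSTART, 2.48 in gl2_Amo, 1.44 in gl2_E375G R392M and 1.69 in gl2-5. In each list, peaks were therefore denser in the window than in the rest of chromosome 2, the null mutant included.

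Both ends of the window lay between peaks of the GL2 list. The last GL2 summit before the window, at 1966282, had 13 tags and a fold enrichment of 13.0, and the first inside, at 2131321, had 6 tags and a fold of 42.5. At the other end, the last GL2 summit inside was at 5911993 (8 tags, fold 19.3) and the first outside at 6002314 (54 tags, fold 144). That outer site was listed for all 6 genotypes, with summits from 6002306 to 6002384, and thus stands just outside the set.

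**Figure D1:**
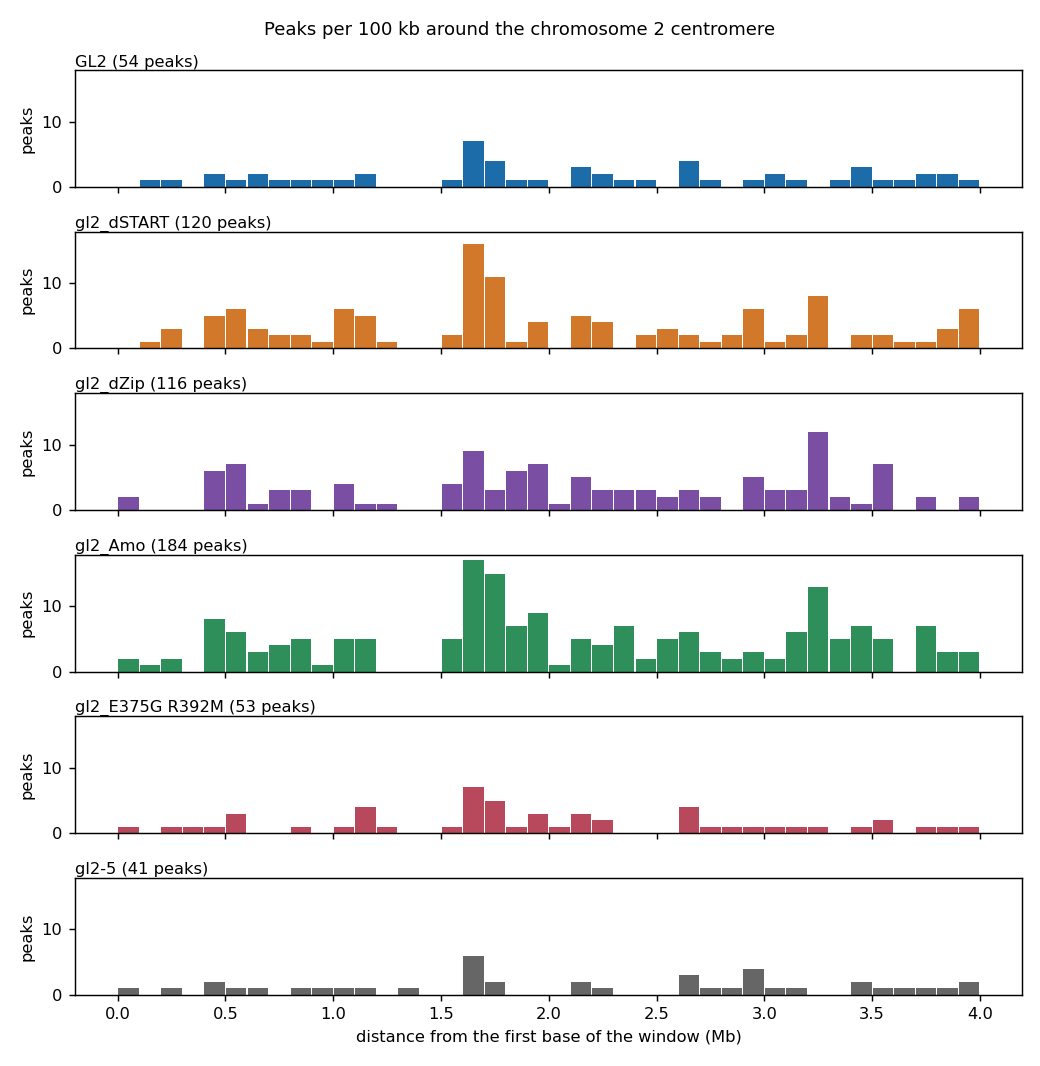
Peaks in each 100 kb bin of the 4 Mb window, 1 panel per list, with the number of peaks on the y axis and the distance of the bin from the first base of the window on the x axis. In 5 lists the fullest bin is the one starting 1.6 Mb into the window, with between 6 and 17 peaks, and in gl2_dZip it is the one starting 3.2 Mb into the window, with 12.

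Within the window, peaks were not spread evenly. Of the 40 bins of 100 kb, 31 held a GL2 peak, 33 a gl2_dSTART peak, 31 a gl2_dZip peak, 35 a gl2_Amo peak, 29 a gl2_E375G R392M peak and 26 a gl2-5 peak. The bin from 3600001 to 3700000 held 7 peaks in GL2, 16 in gl2_dSTART, 9 in gl2_dZip, 17 in gl2_Amo, 7 in gl2_E375G R392M and 6 in gl2-5, and was the fullest bin of every list except gl2_dZip. The neighbouring bin from 3700001 to 3800000 held 4, 11, 3, 15, 5 and 2 in the same order. Together both bins held 20.4% of the GL2 peaks in the window (11.8 to 32.9), 22.5% in gl2_dSTART (15.9 to 30.8), 10.3% in gl2_dZip (6.02 to 17.2), 17.4% in gl2_Amo (12.6 to 23.5), 22.6% in gl2_E375G R392M (13.5 to 35.5) and 19.5% in gl2-5 (10.2 to 34.0). The share was lowest in gl2_dZip, although the intervals overlapped.

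Counts also differed in a bin farther along the chromosome. From 5200001 to 5300000 there were 0 GL2 peaks, 8 in gl2_dSTART, 12 in gl2_dZip, 13 in gl2_Amo, 1 in gl2_E375G R392M and 0 in gl2-5. The share of the window's peaks was 0% in GL2 (0 to 6.64), 6.67% in gl2_dSTART (3.42 to 12.6) and 10.3% in gl2_dZip (6.02 to 17.2). It was 7.07% in gl2_Amo (4.18 to 11.7), 1.89% in gl2_E375G R392M (0.334 to 9.94) and 0% in gl2-5 (0 to 8.57). All these intervals overlapped. The gl2_dSTART peaks held 54 tags in all. The bin was the fullest of gl2_dZip and, with 8 and 13 peaks, came after the 2 bins above in gl2_dSTART and gl2_Amo. Among the other full bins, several of them tied, were those from 4600001 to 4700000 in GL2 and gl2-5 (4 and 3 peaks), from 4900001 to 5000000 in gl2-5 (4 peaks), from 3100001 to 3200000 in gl2_E375G R392M (4 peaks) and from 2500001 to 2600000 in gl2_dZip (7 peaks). The median distance between neighbouring peaks in the window ran from 10564 bp in gl2_Amo to 59592 bp in gl2-5.

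The opposite of these full bins was a nearly empty stretch. The 3 bins from 3200001 to 3500000 held 27, 29 and 36 protein-coding genes, more than any other bin of the window, and 3, 1 and 0 peaks over all 6 lists. This stretch carries the mitochondrial insertion. From the first to the last of 19 listed genes of the insertion, a block of 264 kb or 6.59% of the window, there was 1 gl2_dSTART peak, 1 gl2-5 peak and none in GL2, gl2_dZip, gl2_Amo and gl2_E375G R392M. An even spread over the window would have put 3.56 GL2 peaks, 7.91 of gl2_dSTART, 7.65 of gl2_dZip, 12.1 of gl2_Amo, 3.50 of gl2_E375G R392M and 2.70 of gl2-5 there. The gl2_dSTART peak, at 3291807 to 3291886 with 6 tags and a fold of 11.2, was in ABCI4 (AT2G07681), a gene of cytochrome c maturation. The gl2-5 peak, at 3334124 to 3334307, had 21 tags and a fold of 6.59. Whether reads from the insertion could be placed there or on the mitochondrial genome was not tested.

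The peaks were mostly short, and those of gl2_dZip were longer and held more raw tags. Lengths, tag counts, scores, folds and false discovery rates (FDRs) are the authors' values for single peaks. The median length in the window was 124 bp in GL2, 132 bp in gl2_dSTART, 230 bp in gl2_dZip, 156 bp in gl2_Amo, 153 bp in gl2_E375G R392M and 144 bp in gl2-5. Outside the window the medians were 120, 130, 270, 154, 117 and 99.5 bp in the same order, so peaks in the window were longer than elsewhere in gl2_E375G R392M and gl2-5 and shorter in gl2_dZip. The median tag count in the window was 9 in GL2, 6 in gl2_dSTART, 23.5 in gl2_dZip, 8 in gl2_Amo, 11 in gl2_E375G R392M and 8 in gl2-5. As a share of kept tags the order turned, since the gl2_dZip list had the most kept tags: the median was 0.00188% in gl2_dZip, above 0.00149% in gl2_Amo alone and below 0.00202% in gl2_dSTART, 0.00255% in GL2, 0.00295% in gl2_E375G R392M and 0.00352% in gl2-5. Before the caller dropped tags, gl2_Amo had the most ChIP tags, 70376472 against 54369870 in gl2_dZip. Many peaks rested on the lowest tag count of their list, except in gl2_dZip. With 6 tags there were 16 GL2 peaks (29.6% of those in the window), 46 gl2_Amo peaks (25%) and 8 gl2_E375G R392M peaks (15.1%). With 5 tags there were 44 gl2_dSTART peaks (36.7%) and 12 gl2-5 peaks (29.3%). In gl2_dZip, 1 peak (0.862%) had the lowest count, 8 tags. Whether peaks at the lowest count were more frequent in the window than outside it was not tested. Such peaks stood at the limit of calling. A site missing from a list was not called at this depth and input scaling, and the tags at uncalled sites were not measured here.

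The ratings of the peaks followed those of their lists. The median fold enrichment, the ratio of tags to the scaled local background, was 28.6 in GL2 in the window and 21.7 outside it. For gl2_dSTART it was 27.0 and 25.2, in gl2_dZip 14.6 and 12.6, in gl2_Amo 17.6 and 17.3, in gl2_E375G R392M 18.8 and 22.3, and in gl2-5 31.9 and 33.9. An FDR of 5% or less was given to 27 of the 54 GL2 peaks, or 50%, where the whole list had 42.8%. All 120 gl2_dSTART peaks passed it (100% in the list) and 183 of the 184 gl2_Amo peaks (99.6% in the list). It was passed by 31 gl2_E375G R392M peaks, or 58.5% (68.0% in the list), by 2 gl2-5 peaks, or 4.88% (2.79% in the list), and by 0 gl2_dZip peaks (0.159% in the list). For gl2_dZip the lowest FDR in the window was 40% and 84 of the 116 peaks were at 100%, which limits every gl2_dZip count given here. The ratio of kept ChIP to input tags, from which the caller scales the input, ran from 0.179 (gl2-5) to 1.29 (gl2_dZip), and its part in these ratings was not tested.

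In every list except gl2_dZip, most tags in peaks of the window lay in 3 wide regions between 3605665 and 3628185. They were listed in GL2, gl2_dSTART, gl2_Amo and gl2_E375G R392M, in part in gl2-5, and not at all in gl2_dZip. The third of them was 10164 bp long in GL2, the longest GL2 peak of the window. Peaks over 1 kb numbered 3 in GL2, gl2_dSTART, gl2_dZip and gl2_E375G R392M, 5 in gl2_Amo and 2 in gl2-5, among whole lists in which 2.40%, 0.985%, 8.74%, 1.88%, 2.58% and 1.62% of the peaks were as long, in GL2, gl2_dSTART, gl2_dZip, gl2_E375G R392M, gl2_Amo and gl2-5. They held 91.3% of the GL2 tags in the window, 87.0% in gl2_dSTART, 82.3% in gl2_Amo, 91.8% in gl2_E375G R392M and 58.8% in gl2-5. In gl2_dZip, where the wide peaks were at other places, it was 37.8%.

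The first wide region, from 3605665 to 3607937 in GL2, had no gene at its summit. It held 1688 tags in GL2, 1707 in gl2_dSTART, where it was split into 2 peaks, 2578 in gl2_Amo, 1825 in gl2_E375G R392M and 769 in gl2-5, where it was split into 3, and it was not listed in gl2_dZip. As a share of kept tags this was 0.479%, 0.573%, 0.479%, 0.489% and 0.339% in the same order. The 4 fusions that listed it thus lay between 0.479% and 0.573% of their tags, and the null mutant, which has no EYFP, had the lowest share of the 5. The highest fold in the region was 7.57 in GL2, 10.8 in gl2_dSTART, 4.66 in gl2_Amo, 5.36 in gl2_E375G R392M and 6.59 in gl2-5, so that gl2-5 lay between the fusions.

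The second wide region, from 3614915 to 3617854 in GL2, had its summit in AT2G07981, a protein-coding gene in the table used. It held 2625 tags in GL2, 2742 in gl2_dSTART, 3617 in gl2_Amo, 2784 in gl2_E375G R392M and 1134 in gl2-5, or 0.744%, 0.921%, 0.671%, 0.747% and 0.499% of the kept tags. Its ends were shared closely: gl2_dSTART gave the same first and last base as GL2, and gl2_E375G R392M reached from 3614910 to 3617851. The highest folds were 6.63, 8.19, 3.69, 4.88 and 5.41 in the same order, the last of them for the null mutant.

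The third wide region, from 3617935 to 3628098 in GL2, had its summit in AT2G08986, another protein-coding gene of the table, and held the most tags of any peak in the window. There were 9265 tags in GL2, 9718 in gl2_dSTART, 13109 in gl2_Amo and 10046 in gl2_E375G R392M, or 2.63%, 3.26%, 2.43% and 2.69% of the kept tags. Neither gl2_dZip nor gl2-5 listed it. The folds were low for so many tags, 6.19 in GL2, 7.07 in gl2_dSTART, 3.09 in gl2_Amo and 3.74 in gl2_E375G R392M. Tag density was similar in the 3 regions, at 0.743, 0.893 and 0.912 tags per bp in GL2, and higher in gl2_Amo, at 1.13, 1.22 and 1.28. Per the file headers, the caller kept at most 1 tag at a position. What this limit did to the tag counts of regions this dense was not tested.

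**Figure D2:**
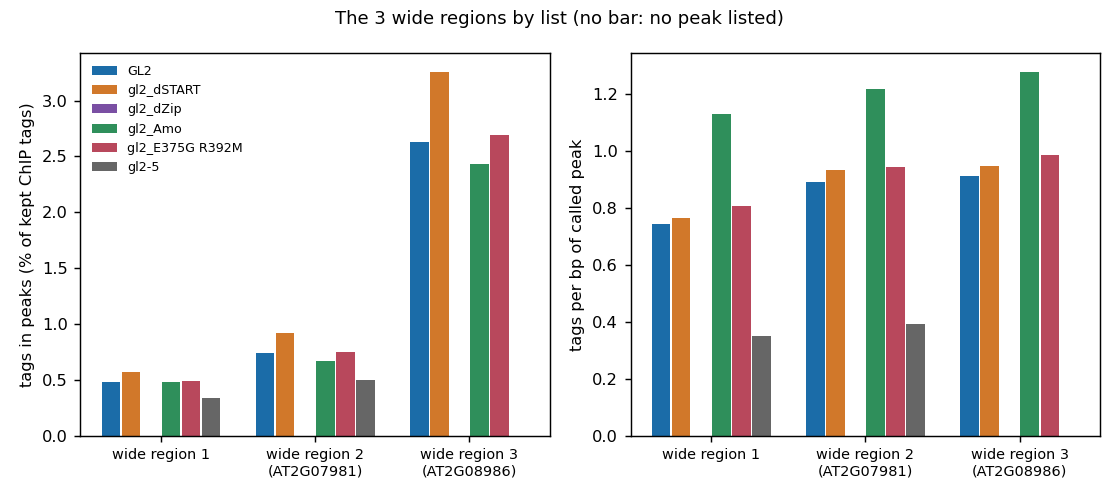
Tags in called peaks of the 3 wide regions as a percent of the kept ChIP tags of the list (left) and per bp of called peak (right), with 1 bar per list and no bar where no peak was listed. The third region holds between 2.43% and 3.26% of the kept tags in GL2, gl2_dSTART, gl2_Amo and gl2_E375G R392M, and gl2_dZip has no bar in any region.

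Summed over the called peaks of the 3 regions, the share of kept tags was 3.85% in GL2, 4.76% in gl2_dSTART, 3.58% in gl2_Amo, 3.93% in gl2_E375G R392M, 0.838% in gl2-5 and 0 in gl2_dZip. Over all peaks of the window it was 4.22% in GL2, 5.34% in gl2_dSTART, 0.501% in gl2_dZip, 4.42% in gl2_Amo, 4.28% in gl2_E375G R392M and 1.00% in gl2-5. Without the wide regions it came to 0.369% in GL2, 0.585% in gl2_dSTART, 0.501% in gl2_dZip, 0.833% in gl2_Amo, 0.352% in gl2_E375G R392M and 0.163% in gl2-5. By tags in called peaks, the order of the lists thus changed with 3 regions. With them gl2_dZip was lowest, without them gl2_Amo was highest and gl2_dZip came after gl2_Amo and gl2_dSTART. Tags at uncalled places, all 3 regions in gl2_dZip and the third in gl2-5, are not in these shares and were not measured.

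The wide peaks of gl2_dZip lay farther along the chromosome and had no GL2 counterpart. The widest, at 5198172 to 5201873, had 1269 tags, a fold of 4.41 and an FDR of 43.8%. Its neighbour at 5201939 to 5205044 had 905 tags and a fold of 5.64, and a peak at 5577672 to 5578987 had 189 tags and a fold of 9.16. From 5198172 to 5206023, gl2_dZip had 3 peaks with 2416 tags (0.194% of its kept tags) and gl2_Amo had 7 with 490 tags (0.0910%), while GL2, gl2_dSTART, gl2_E375G R392M and gl2-5 had none. One of the gl2_Amo peaks there, at 5199662 to 5200972, was wide, with 135 tags and a fold of 4.84, and its other wide peak without a GL2 match of like length, at 3713976 to 3715026, had 131 tags and a fold of 25.4. Wide signal in this stretch was thus listed in gl2_dZip and gl2_Amo alone among the 6 lists, all of it at an FDR above 40% in gl2_dZip and from 3.56% to 4.62% in gl2_Amo.

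Smaller clusters stood near the wide regions. Where merged peaks at most 1 kb apart were joined, the stretch from 3660765 to 3664776 had 4 peaks in GL2 (245 tags), 7 in gl2_dSTART (327), 3 in gl2_dZip (402), 8 in gl2_Amo (753), 3 in gl2_E375G R392M (246) and 0 in gl2-5. This cluster holds the single region of the window that was listed for all 5 fusions and not in gl2-5, at 3663999 to 3664440 outside annotated genes. Its tags were 93 in GL2, 101 in gl2_dSTART, 229 in gl2_dZip, 218 in gl2_Amo and 107 in gl2_E375G R392M, and its folds were 6.17, 10.2, 5.36, 12.2 and 4.84. The gl2_dZip value there had an FDR of 100%, and the gl2-5 library was the shallowest, so that the absence of a gl2-5 peak is a statement about this depth.

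A second cluster, from 3712555 to 3718511, held 3 peaks in GL2, 9 in gl2_dSTART, 0 in gl2_dZip, 9 in gl2_Amo, 3 in gl2_E375G R392M and 1 in gl2-5. Its strongest region, at 3717948 to 3718511, had 231 tags in GL2, 243 in gl2_dSTART, 359 in gl2_Amo and 251 in gl2_E375G R392M, with folds of 9.13, 14.6, 7.92 and 7.79. The 1 gl2-5 peak had 7 tags, so the cluster as a whole was listed mainly for the 4 fusions other than gl2_dZip.

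Next, the lists were compared site by site. When overlapping peaks of the 6 lists were merged, the window held 385 regions, of which 303 were in 1 list, 45 in 2, 8 in 3, 14 in 4, 7 in 5 and 8 in all 6. Peaks of 1 list made up most of the regions: 111 were in gl2_Amo alone, 73 in gl2_dZip, 64 in gl2_dSTART, 21 in GL2, 17 in gl2_E375G R392M and 17 in gl2-5. Among combinations, gl2_dZip with gl2_Amo came first with 16 regions, then gl2_dSTART with gl2_Amo with 13. The set GL2, gl2_dSTART, gl2_Amo and gl2_E375G R392M was found in 7 regions, 5 of them between 3600001 and 3800000, and the same set with gl2-5 in 6. Altogether 23 regions were in gl2_dZip and gl2_Amo but not in GL2. The bins from 3600001 to 3800000 held 47 of all 385 regions. They held 10 of the 29 regions found in 4 or more lists, and none of the 8 found in all 6, a small number to set beside that share.

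**Figure D3:**
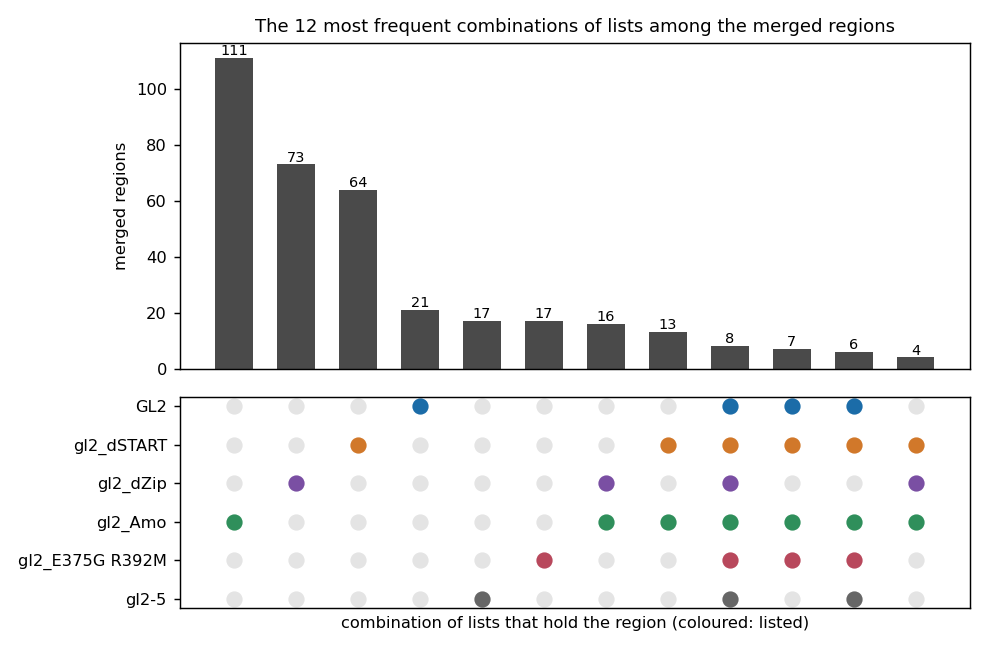
Number of merged regions (y axis) for the 12 most frequent combinations of lists, with coloured dots in the lower panel marking the lists that hold the regions. Regions of a single list lead, with 111 in gl2_Amo, 73 in gl2_dZip and 64 in gl2_dSTART, and 8 regions are held by all 6 lists.

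The share of peaks found in no other list was 38.9% in GL2 (27.0 to 52.2; 38.9% over the whole list), 53.3% in gl2_dSTART (51.9% in the whole list), 62.9% in gl2_dZip (51.6%), 60.3% in gl2_Amo (63.2%), 32.1% in gl2_E375G R392M (43.6%) and 41.5% in gl2-5 (43.3%). For gl2_dZip the interval in the window, 53.9 to 71.2, lay above the share in its whole list, and for the other 5 the share in the whole list lay within the interval. Peaks of 1 list held few tags. In GL2 their median was 6 tags, against 31 for peaks whose region was in 4 to 6 lists. The medians were 5 and 24.5 in gl2_dSTART, 15 and 31 in gl2_dZip, 7 and 80 in gl2_Amo, 7 and 23.5 in gl2_E375G R392M, and 5 and 16 in gl2-5. In each of the 6 lists, the sites that recurred in 4 or more lists held more tags. The fold did not follow the tags in every list: its median was higher for peaks of 1 list in gl2_dSTART (31.6 against 15.2) and gl2_E375G R392M (20.5 against 19.4). It was nearly equal in gl2_dZip (16.2 against 16.0), and lower in GL2 (28.4 against 41.6), gl2_Amo (21.6 against 25.4) and gl2-5 (28.5 against 38.5). The folds of peaks of 1 list rest on few tags, and gl2_dSTART peaks of 5 tags repeat values such as 42.0 and 33.6.

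The gl2-5 list, the control for antibody background, shared a sizeable part of the GL2 peaks. Of the 54 GL2 peaks, 18 overlapped a gl2-5 peak, or 33.3% (22.2 to 46.6), near the 29.5% of the whole list. For gl2_E375G R392M it was 17 of 53, or 32.1% (21.1 to 45.5), against 22.7% in the whole list, in gl2_Amo 9.78% (6.28 to 14.9), against 8.55%, and in gl2_dZip 6.90% (3.54 to 13.0), against 7.47%. For gl2_dSTART 19 of 120 peaks did, or 15.8% (10.4 to 23.4), against 8.70%, and its interval did not reach the 7.31% to 9.52% of the peaks outside the window. In the lists as deposited, a larger share of gl2_dSTART peaks thus overlapped a gl2-5 peak in the window than outside it. These intervals cover counting error only and take neighbouring peaks as independent, and the difference was not tested. The overlaps included the gl2_dSTART pieces of the first wide region and its peak in the second, each counted as a separate peak. With peaks of at most 1 kb, the gl2_dSTART share in the window was 14.5% (17 of 117). No interval was computed for that share, so whether the difference holds without peaks over 1 kb was not tested.

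Among GL2 peaks, those shared with gl2-5 were the stronger. Their median fold was 87.6 and their median tag count 24.5, against 26.6 and 7 for the 36 that did not overlap a gl2-5 peak. Of these 36, 21 were in no altered form either, with a median of 6 tags, 4 were in 1 altered list, 10 in 3 and 1 in all 4. The 10 had a median of 45.5 tags and a median fold of 9.62, but they were a mixed set. They included the third wide region and peaks of both clusters described above. Those starting at 2542213, 2892214 and 3109478 had 8, 9 and 12 tags and folds of 28.9, 14.8 and 51.2.

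Sites of wild-type GL2 recurred in the altered forms to different extents. Of the 54 GL2 peaks, 28 overlapped a gl2_Amo peak, or 51.9% (38.9 to 64.6; 51.9% in the whole list), 27 a gl2_dSTART peak, or 50% (37.1 to 62.9; 41.5%), 25 a gl2_E375G R392M peak, or 46.3% (33.7 to 59.4; 44.9%), and 14 a gl2_dZip peak, or 25.9% (16.1 to 38.9; 18.3%). Each share in the whole list lay within the interval of the window. Seen from the altered forms, 47.2% of the gl2_E375G R392M peaks (34.5% in the whole list), 23.3% in gl2_dSTART (16.5%), 15.2% in gl2_Amo (14.2%) and 12.1% in gl2_dZip (14.1%) overlapped a GL2 peak. The gl2_dZip list shared less with gl2_dSTART and gl2_Amo here than over its whole length: 17.2% of its peaks (11.4 to 25.1) overlapped a gl2_dSTART peak, against 32.1% in the whole list, and 30.2% (22.6 to 39.1) overlapped a gl2_Amo peak, against 40.2%. In contrast, 54.7% of the gl2_E375G R392M peaks (41.5 to 67.3) overlapped a gl2_dSTART peak, against 37.7%, and 51.2% of the gl2-5 peaks (36.5 to 65.7) did, against 32.0%. The gl2-5 peaks overlapped GL2 and gl2_Amo peaks just as often, at 51.2% each (43.2% and 44.3% in the whole list), and gl2_E375G R392M peaks at 48.8% (42.9%). Among the gl2-5 peaks were 5 pieces of the first and second wide regions, which overlapped peaks of GL2, gl2_dSTART, gl2_Amo and gl2_E375G R392M. They count as separate peaks in these gl2-5 shares and intervals, and shares without them were not computed. Of the gl2_dSTART peaks, 16.7% overlapped a gl2_dZip peak (22.0% in the whole list). These shares depend on list length, and gl2_Amo and gl2_dSTART had the longest lists.

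The 8 regions held by all 6 lists were short, single peaks, and 7 of them lay outside annotated genes and their 1 kb flanks. They made up 14.8% of the GL2 peaks in the window (7.70 to 26.6), where 8.19% of the whole GL2 list overlapped a peak of every other list. In the altered forms they were 6.67% of the gl2_dSTART peaks (3.19% over the whole list), 6.90% in gl2_dZip (6.27%), 4.35% in gl2_Amo (2.24%) and 15.1% in gl2_E375G R392M (6.25%). The one with the most tags in 5 of the 6 lists, at 5099942 to 5100113, had 67 tags in GL2, 58 in gl2_dSTART, 69 in gl2_dZip, 91 in gl2_Amo, 67 in gl2_E375G R392M and 48 in gl2-5. Its fold was 132 in GL2, 34.9 in gl2_dSTART, 26.0 in gl2_dZip, 60.2 in gl2_Amo, 29.6 in gl2_E375G R392M and 37.0 in gl2-5. It was among the 5 highest-scoring peaks of the window in GL2, gl2_dZip, gl2_E375G R392M and gl2-5. As a share of kept tags, gl2-5 was the highest list at this site, at 0.0211%, against 0.0190% in GL2.

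The region at 3092684 to 3093040, within 1 kb of the protein-coding gene AT2G07440 in GL2, had 47 tags in GL2, 45 in gl2_dSTART, 33 in gl2_dZip, 91 in gl2_Amo, 41 in gl2_E375G R392M and 19 in gl2-5, with folds of 120.5, 81.2, 15.3, 78.6, 50.8 and 61.9. The region at 5022317 to 5022604 had 31, 26, 31, 80, 32 and 12 tags and folds of 128, 43.8, 32.1, 137, 58.0 and 25.4. In both, GL2 and gl2_Amo were among the 3 highest folds and gl2_dZip or gl2-5 the lowest. The region at 2460980 to 2461120 had the highest GL2 fold of the 8, 170.1 on 26 tags, where the other lists had 42.4 in gl2_dSTART, 15.4 in gl2_dZip, 81.8 in gl2_Amo, 38.5 in gl2_E375G R392M and 49.9 in gl2-5.

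The other 4 regions held between 14 and 33 tags in GL2. The one at 3110708 to 3110954 had 33 GL2 tags and folds of 85.6 in GL2, 24.5 in gl2_dSTART, 16.0 in gl2_dZip, 169 in gl2_Amo, 10.9 in gl2_E375G R392M and 55.3 in gl2-5. In the one at 4733608 to 4733882 (31 GL2 tags) the folds were 73.2, 15.8, 15.6, 73.0, 40.5 and 60.6 in the same order. At 4650283 to 4650518 (21 GL2 tags) they were 89.6, 36.1, 37.4, 50.8, 20.1 and 29.2, and at 4103416 to 4103612 (14 GL2 tags) 99.2, 67.2, 33.2, 103, 68.9 and 41.4. The GL2 fold was above that of gl2-5 in each of these 4, as in the 4 above.

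Over the 8 regions the measure used decided the order of the lists. The GL2 fold was above that of gl2-5 in 8 of 8, with a median ratio of 2.73. As a share of kept tags GL2 was above gl2-5 in 6 of 8, with a median ratio of 1.63 and a range from 0.845 to 2.09. In raw tags gl2_Amo was highest and gl2-5 lowest in 8 of 8, and as a share of kept tags gl2_dZip was lowest in 8 of 8, with a median of 0.00224%, against 0.00879% in GL2 and 0.0129% in gl2_Amo. All 8 regions were listed in the mutant that has no EYFP fusion, and the scaling that sets these folds differs between lists with the input.

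**Figure D4:**
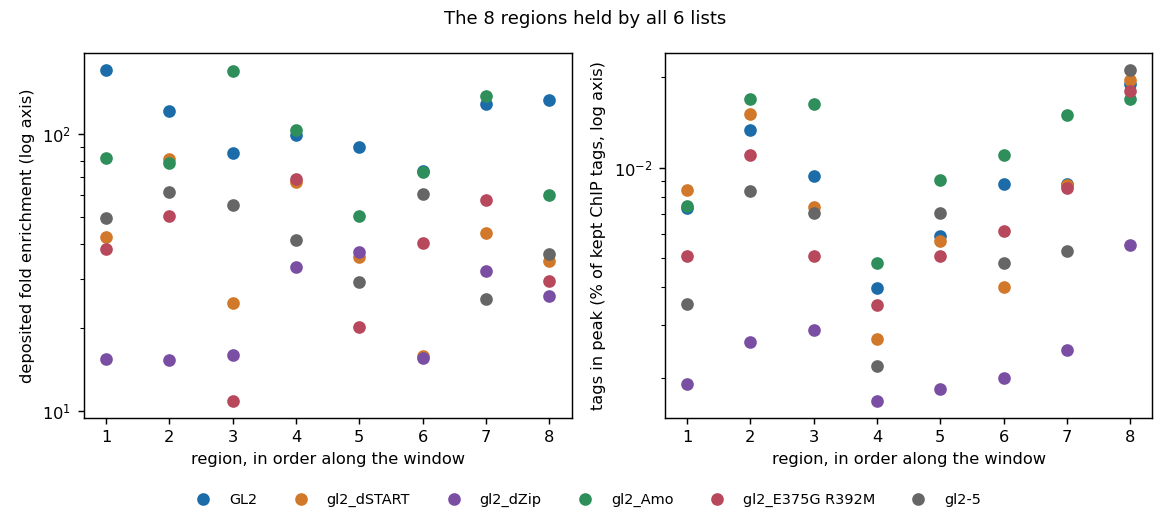
The 8 regions held by all 6 lists, numbered in order along the window on the x axis, with the deposited fold enrichment (left) and the tags as a percent of kept ChIP tags (right), both on log axes, and 1 dot per list. GL2 lies above gl2-5 in 8 of 8 regions by fold and in 6 of 8 by share of tags, and gl2_dZip is lowest by share of tags in each region.

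Of the 7 regions in 5 lists, 6 lacked a gl2_dZip peak. Apart from the 2 wide regions there, these were 4 short ones, given here after their values had been seen. The region at 4648475 to 4648652 had the highest GL2 fold of the window, 187 on 28 tags, with 66.5 in gl2_dSTART, 83.5 in gl2_Amo, 24.6 in gl2_E375G R392M and 113 in gl2-5, where it was among the 5 highest-scoring peaks. The region at 5456584 to 5456806 had folds of 113, 17.4, 147, 23.1 and 59.9 in that order. The one at 5799695 to 5799990, within 1 kb of AT2G13845, had 142, 29.1, 48.4, 23.5 and 39.9, and the one at 4996887 to 4996995 had 41.6, 42.0, 51.7, 40.8 and 74.3. The null mutant thus had the second highest fold at the first of them and the highest at the last.

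The top of each list repeated these sites. In GL2, gl2_dSTART, gl2_Amo and gl2_E375G R392M the 3 wide regions were among the 5 highest-scoring peaks, and in gl2-5 the first and the second were. Several wide peaks carried the same score of 3100, in 4 lists, so their order within a list has no meaning. The remaining places went to regions held by all 6 lists, except for the gl2-5 peak at 4648477 to 4648650 (17 tags, fold 113), whose region lacked gl2_dZip, and in gl2_dSTART, where they went to the second piece of the first wide region (3607453 to 3607927, fold 10.8) and to 3717958 to 3718463 (fold 14.6). For gl2_dZip, the peak at 5099958 to 5100102 came first, followed by the 3 wide peaks named above and by 5565041 to 5565892 (105 tags, fold 13.3).

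Few of the genes in the window had a summit. The window held 340 protein-coding genes, 658 pseudogenes and 132 RNA genes by the table used. A summit of any list lay in 26 protein-coding genes, or 7.65%, and in 107 pseudogenes, or 16.3%. By list, 5 protein-coding genes were hit in GL2, 9 in gl2_dSTART, 2 in gl2_dZip, 16 in gl2_Amo, 2 in gl2_E375G R392M and 4 in gl2-5, and 11, 27, 35, 46, 12 and 6 pseudogenes. In gl2_dZip, pseudogenes thus outnumbered protein-coding genes the most. Of the genes hit, 21 protein-coding genes and 81 pseudogenes were hit in 1 list only.

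In each list, protein-coding genes and their flanks held a smaller share of the summits than of the bases of the window, for the flanks between 0.862% (gl2_dZip) and 9.26% (GL2) of the summits against 9.67% of the bases. Protein-coding genes covered 14.9% of the window and held 9.26% of the GL2 peaks (4.02 to 19.9), 7.50% in gl2_dSTART (4.00 to 13.6), 1.72% in gl2_dZip (0.474 to 6.07), 8.70% in gl2_Amo (5.42 to 13.7), 3.77% in gl2_E375G R392M (1.04 to 12.8) and 12.2% in gl2-5 (5.32 to 25.5). The intervals of GL2 and gl2-5 included 14.9%, and the other 4 lay below it. The base share includes the nearly empty 264 kb block of the mitochondrial insertion, which held 94 of the 340 protein-coding genes. Shares without that block were not computed. Both protein-coding genes with a gl2_E375G R392M summit, AT2G07981 and AT2G08986, were those of the wide regions, so with peaks of at most 1 kb its share was 0.

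Pseudogenes covered 36.2% of the window. They held 22.2% of the GL2 peaks (13.2 to 34.9), 25% in gl2_dSTART (18.1 to 33.4), 35.3% in gl2_dZip (27.2 to 44.4), 26.6% in gl2_Amo (20.8 to 33.4), 22.6% in gl2_E375G R392M (13.5 to 35.5) and 17.1% in gl2-5 (8.53 to 31.3). The gl2_dZip share was near that of the bases, and the intervals of the other 5 lists lay below it. The remainder, outside genes and the 1 kb flanks of protein-coding genes, made up 38.1% of the bases and between 59.3% (GL2) and 66.0% (gl2_E375G R392M) of the peaks, with each interval above 38.1%. In all 6 lists, the null mutant included, summits around this centromere lay most often outside annotated genes.

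**Figure D5:**
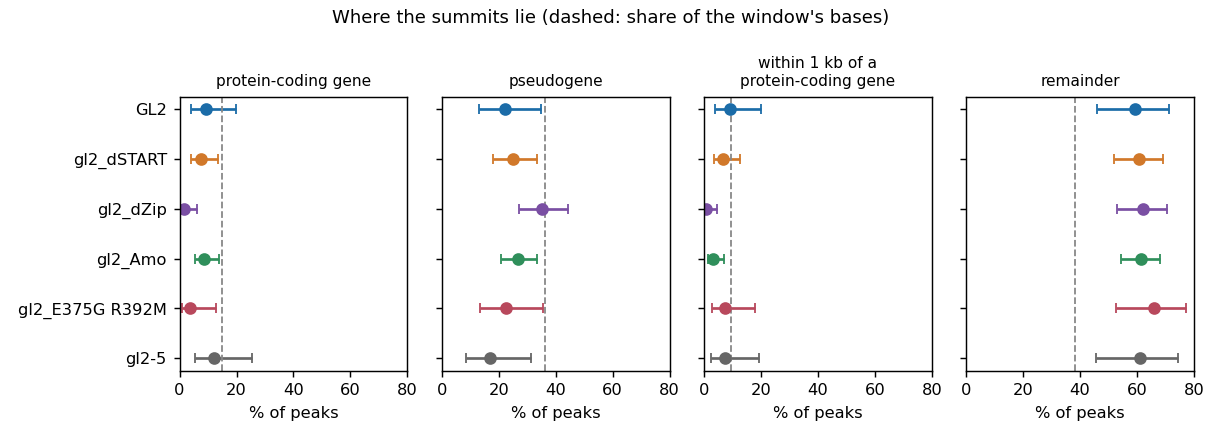
Percent of the peaks in the window (x axis) with the summit in a protein-coding gene, in a pseudogene, within 1 kb of a protein-coding gene or in the remainder, 1 row per list, with 95% Wilson intervals for counting error and a dashed line at the share of the window's bases. In the remainder all 6 intervals lie to the right of the line at 38.1%, and in pseudogenes the gl2_dZip share of 35.3% lies at the line of 36.2%.

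Of the genes hit in 4 or more lists there were 4, and 2 of them were AT2G07981 and AT2G08986 in the wide regions. The pseudogene AT2G10600 held a region at 4130192 to 4130574, with 140 tags in GL2, 137 in gl2_dSTART, 208 in gl2_Amo and 143 in gl2_E375G R392M and no peak in gl2_dZip or gl2-5 there. Its folds were 10.1, 12.2, 13.7 and 7.41. The fourth, MCM9 (AT2G14050), which encodes a DNA helicase of the MCM family, had a peak at 5911951 to 5912043 in GL2 (8 tags, fold 19.3), gl2_Amo (9 tags, fold 22.6) and gl2-5 (8 tags, fold 23.4), and gl2_dZip had a peak of 11 tags and fold 18.7 elsewhere in the gene. The null mutant's fold in MCM9 was the highest of the 4, and each peak rested on few tags.

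Of 17 listed genes of known function in the window, 3 held a summit, each in 1 list with 6 tags. That is 17.6% of them (6.19 to 41.0), against 7.65% of all protein-coding genes of the window, a share within that interval. AGT (AT2G13360), the peroxisomal aminotransferase of photorespiration, had a GL2 peak at 5539632 to 5539701 with a fold of 42.5. ACO3 (AT2G05710), an aconitase, had a gl2_Amo peak at 2142353 to 2142482 with a fold of 17.3, and CALS5 (AT2G13680), the callose synthase of the pollen wall, had a gl2_Amo peak at 5701024 to 5701099 with a fold of 25.9. Within 1 kb of OPR3 (AT2G06050), an enzyme of jasmonate synthesis, gl2_E375G R392M had a peak at 2363312 to 2363439 with 6 tags and a fold of 34.2. None of the 4 was listed for more than 1 genotype. A gene outside that list, GRF6 (AT2G06200), a growth-regulating transcription factor, was hit in gl2_Amo (8 tags, fold 25.9) and in gl2-5 (6 tags, fold 31.9) and is named after its values had been seen.

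Pseudogenes hit in 3 lists, likewise named after their values had been seen, were AT2G10280 and AT2G10820. AT2G10280 held 3 gl2_dZip peaks, 1 of gl2_Amo and 1 of gl2_E375G R392M. They met in a region at 3948249 to 3948933, where gl2_dZip had 90 tags and a fold of 8.96, gl2_Amo 16 tags and a fold of 7.29, and gl2_E375G R392M 8 tags and a fold of 15.0. AT2G10820 held a region of gl2_dZip (66 tags, fold 9.76) and gl2_Amo (27 tags, fold 8.43) at 4257429 to 4257862 and a GL2 peak of 6 tags at another place. GL2 had no peak in AT2G10280, and in AT2G10820 it shared no region with the altered forms.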

How the data were processed

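ChIP-seq of 21 libraries (15 ChIP, 6 input) was grouped by genotype as labelled. Per the submitters' processing notes, bcl2fastq, Bowtie2 2.2.3, MACS2 1.4.2 and TAIR10 were used. Per the file headers, MACS 1.4.2 called 1 list per genotype on merged ChIP libraries against 1 input (p cutoff 1e-05, at most 1 tag per position). The caller dropped 95.3% to 99.2% of the ChIP tags, and its fitted fragment size, 52 to 58 bp, was near the tag length of 51 bp. Per the file headers, each deposited peak has a count of tags, a score (from its p-value), a fold enrichment, which is a ratio to the scaled local background, and an FDR in percent.

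Members were peaks with a summit from 2000001 to 6000000 on chromosome 2. The members and lists were chosen with earlier results of these data known. From the deposited values, bins, medians, overlaps of at least 1 bp, merged regions and Wilson or exact Poisson intervals (95%) were computed in Python 3.11.15 with pandas 2.3.3, numpy 2.4.6 and scipy 1.17.1, and the code was checked on simulated data. Gene names came from RefSeq (TAIR10.1), whose spans were taken to match TAIR10. They were used for names and for the gene a summit lay in, and strand, exons and descriptions were not used. A planned search for the L1 box was not run here, since no genome sequence was used. A planned list of transposon genes, to be drawn from gene descriptions, matched 1 gene of the window by name, with 0 summits, and was not used further. Regions and genes were named by rule: the 5 highest-scoring peaks of each list, regions in all 6 lists or in all 5 fusions without gl2-5, genes hit in 4 or more lists, listed genes hit in any, and the 3 fullest bins of each list. Some others were named after their values had been seen. Alternatives were an FDR or score limit, lists cut to 681 peaks, 500 bp proximity, 50% reciprocal overlap, bins shifted by 50 kb, other limits for wide peaks, and overlap in place of the summit.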

Additional observations from a re-analysis of the deposited data

Results flagged for a closer look

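Outside the window, the gl2_E375G R392M list held 4 peaks on the mitochondrial genome with 66 tags in all, against 2 in gl2-5 with 27 tags. The gl2_dSTART list held 2 with 27 tags, and the GL2, gl2_dZip and gl2_Amo lists held 0.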

How the results depend on the processing

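The 55 results gave 119 values under alternatives, of which 93 stayed within the set limits and 26 moved, and none of the values has a test. With peaks at an FDR of 5% or less, the window kept 27 peaks in GL2, 0 in gl2_dZip, 31 in gl2_E375G R392M and 2 in gl2-5, while gl2_dSTART and gl2_Amo stayed within 1.5 times. At that limit the window held 0% of the nuclear gl2_dZip peaks (0 of 2) and 10.5% in gl2-5 (2 of 19). At a score of 100 or more, 25 peaks were left in GL2, 32 in gl2_dSTART, 27 in gl2_dZip, 55 in gl2_Amo, 22 in gl2_E375G R392M and 19 in gl2-5. With each list cut to its 681 highest-scoring peaks, there were 29 in gl2_dSTART, 68 in gl2_dZip, 37 in gl2_Amo and 24 in gl2_E375G R392M, against 41 in gl2-5 and 38 in GL2. With wide peaks defined as over 2 kb, they held 78.3% of the tags in gl2_dSTART, 34.8% in gl2_dZip, 81.1% in gl2_Amo and 40.7% in gl2-5. Among peaks of at most 1 kb, 0% of the gl2_E375G R392M summits were in protein-coding genes. Without the 3 wide regions, an alternative chosen after seeing the data, the share of kept tags was 0.369% in GL2, 0.585% in gl2_dSTART, 0.833% in gl2_Amo, 0.352% in gl2_E375G R392M and 0.163% in gl2-5. Fewer peaks or tags entered these values, and the cause of the shifts was not tested. Shares of overlap within 500 bp or at 50% reciprocal overlap, shifted bins and overlap in place of the summit moved no result beyond its limits. Replicates could not be left out, since libraries were merged before calling. No paired analysis was possible because each genotype has 1 list whose columns carry no replicate number.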

Other observations

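In the gl2_dZip list, 3 pairs of peaks in the fullest bin lay at nearly the same distance, named after the distances had been seen. Peaks starting at 5222804 and 5228034 were 5230 bp apart, as were those starting at 5223489 and 5228719, and those starting at 5227203 and 5232421 were 5218 bp apart. The second pair had the same length of 231 bp, the same 14 tags, a score of 50.8 and a fold of 17.8. Pairs of peaks with the same length, tags, score and fold at different places also occurred in gl2_Amo, where 11 of the 184 peaks had such a copy, and in gl2_dSTART, where 4 of the 120 did, and in none of the GL2, gl2_E375G R392M and gl2-5 peaks of the window. In gl2_Amo, 3 peaks of 171 bp, with 7 tags and a fold of 17.3 each, started at 2860275, 5355558 and 5799456. Peaks with few tags can share values without sharing a length: gl2_Amo peaks of 103, 106 and 114 bp with 6 tags all had a fold of 25.9 and a score of 62.2. The share of peaks with a copy over the whole lists was not computed, and longer lists offer more pairs. Whether such pairs are copies of a repeat was not tested.

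Close neighbours were more frequent in the lists with more peaks in the window, gl2_Amo, gl2_dZip and gl2_dSTART, than in the other 3. Of the distances between neighbouring peaks, 48.1% were under 10 kb in gl2_Amo, 45.2% in gl2_dZip and 41.2% in gl2_dSTART, against 26.4% in GL2, 19.2% in gl2_E375G R392M and 15.0% in gl2-5. More peaks in the same window lie closer together by number alone, so these shares do not measure clustering.

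HEN2 (AT2G06990), an RNA helicase of the nuclear exosome, had a gl2_Amo peak at 2898331 to 2898415 with 7 tags and a fold of 30.2, and was hit in no other list. AT2G06570 was hit in both gl2_dSTART (6 tags, fold 18.1) and gl2_Amo (25 tags, fold 11.5), in a region at 2623013 to 2623436. HEN2 and AT2G06570 are named after their values had been seen.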
